A study of Homo sapiens with 16 samples.

Results

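The genes described here are 10 regulators of apoptosis of the BCL2 family, taken by symbol from expression tables of 2 human multiple myeloma cell lines. They are BCL2, BCL2L1, MCL1, BAX, BAK1, BCL2L11, BBC3, PMAIP1, BIK and BMF, and all 10 were among the 28277 gene symbols of each table. INA6 and JJN3 are established plasma cell lines. INA6 is known to need interleukin 6 for growth, and JJN3 is not. In the knockdown arm of each line, KANSL2 was repressed by CRISPR interference, in which a catalytically dead Cas9 joined to a repressor domain is guided to a gene. The control arm of each line carried the same system with a non-targeting sgRNA. Each arm had 3 RNA libraries from otherwise untreated cells, 12 libraries in all. The KANSL2 protein belongs to the chromatin-modifying NSL complex, whose catalytic member is the acetyltransferase KAT8. The number of guides, the time from transduction to RNA extraction, and whether the cells were clones or pools are not given in the sources used here. Nothing there says that the 3 libraries of an arm came from separate cultures, so the p-values rest only on library-to-library spread, possibly technical. The comparison asks which BCL2 family transcripts change when KANSL2 is repressed, and whether both lines change alike.

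BCL2 family proteins decide whether the outer membrane of the mitochondrion is permeabilised, the step that releases cytochrome c and starts the caspases. BAX and BAK1 are the effectors that form the pores. BCL2, BCL2L1 (the gene of BCL-XL) and MCL1 are survival proteins that hold effectors and activators in check. The BH3-only proteins BCL2L11 (BIM), BBC3 (PUMA), PMAIP1 (NOXA), BIK and BMF bind the survival proteins through a short helix, and some of them also activate the effectors directly. PMAIP1 binds mainly MCL1. Plasma cells and most myelomas are known to depend on MCL1, and a subset depends on BCL2, the target of venetoclax.

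Expression was given as regularised log (rlog) values on the log2 scale, normalised within each line. Changes are knockdown minus non-targeting, and a gene was called at a limma adjusted p below 0.05. The 2 tables were normalised separately, so levels were not compared between lines. Levels were not compared between genes either, because the values are not scaled by transcript length. The targeted gene checked the labels: KANSL2 was lower in every knockdown library, at 76.4% of the control level in INA6 and 43.1% in JJN3. Calls were common, with 48.6% of 12511 tested genes called in INA6 and 51.0% of 12282 in JJN3, and 90% of the tested genes changed by less than 0.351 and 0.326 on the log2 scale. Plasma cell markers were present in both lines, all 9 of the list reaching the tested range. They moved with the arms: the log2 of their summed level was 16.2 to 16.3 in INA6 knockdown libraries against 16.7 in controls (2 genes higher, 6 lower), and 16.6 to 16.7 in JJN3 knockdown libraries against 16.5 in controls (5 higher, 1 lower). Of markers of other cells, 5 B cell genes summed to 9.66 to 9.84 in INA6 knockdown against 9.64 to 9.73 in control libraries, and to 9.12 to 9.16 against 8.65 to 8.84 in JJN3. The B cell gene MS4A1 was listed at 0 in all INA6 libraries. The T and NK cell, myeloid and stromal sums had highest library values of 4.86, 7.82 and 3.18 in INA6 and 5.83, 7.03 and 1.90 in JJN3, with CD3D, CD3G, LYZ, DCN, LUM and PDGFRB listed at 0 in JJN3. A value of 0 does not show absence in these tables, since EIF4A1, which every cell uses, is also listed at 0 in all 12 libraries. The part of these marker shifts in the results below was not tested.

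Within the family, 6 of 10 genes were called in each line, 4 higher and 2 lower. Beside 24.7% and 24.0% of all tested genes called higher and lower in INA6, and 25.5% and 25.5% in JJN3, the share of the family called was near the background. All 10 genes were in the tested range. The arms were fully separated for 6 of 10 family genes in each line, where 55.2% of tested genes in INA6 and 56.1% in JJN3 did not overlap. The median change of the 10 genes was 0.06 in INA6 and 0.04 in JJN3, and that of all tested genes was 0.000936 and 0.00104. BCL2L11 and PMAIP1 were higher in both lines and BCL2 was lower in both. Over all 11137 genes tested in both lines, 14.2% were called higher in both and 12.3% lower in both. INA6 alone had calls for BAX, BAK1 and BMF, JJN3 alone for MCL1, BBC3 and BIK, and BCL2L1 was called in neither. A call in 1 line does not show that the lines differ, which was tested separately.

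**Figure D1:**
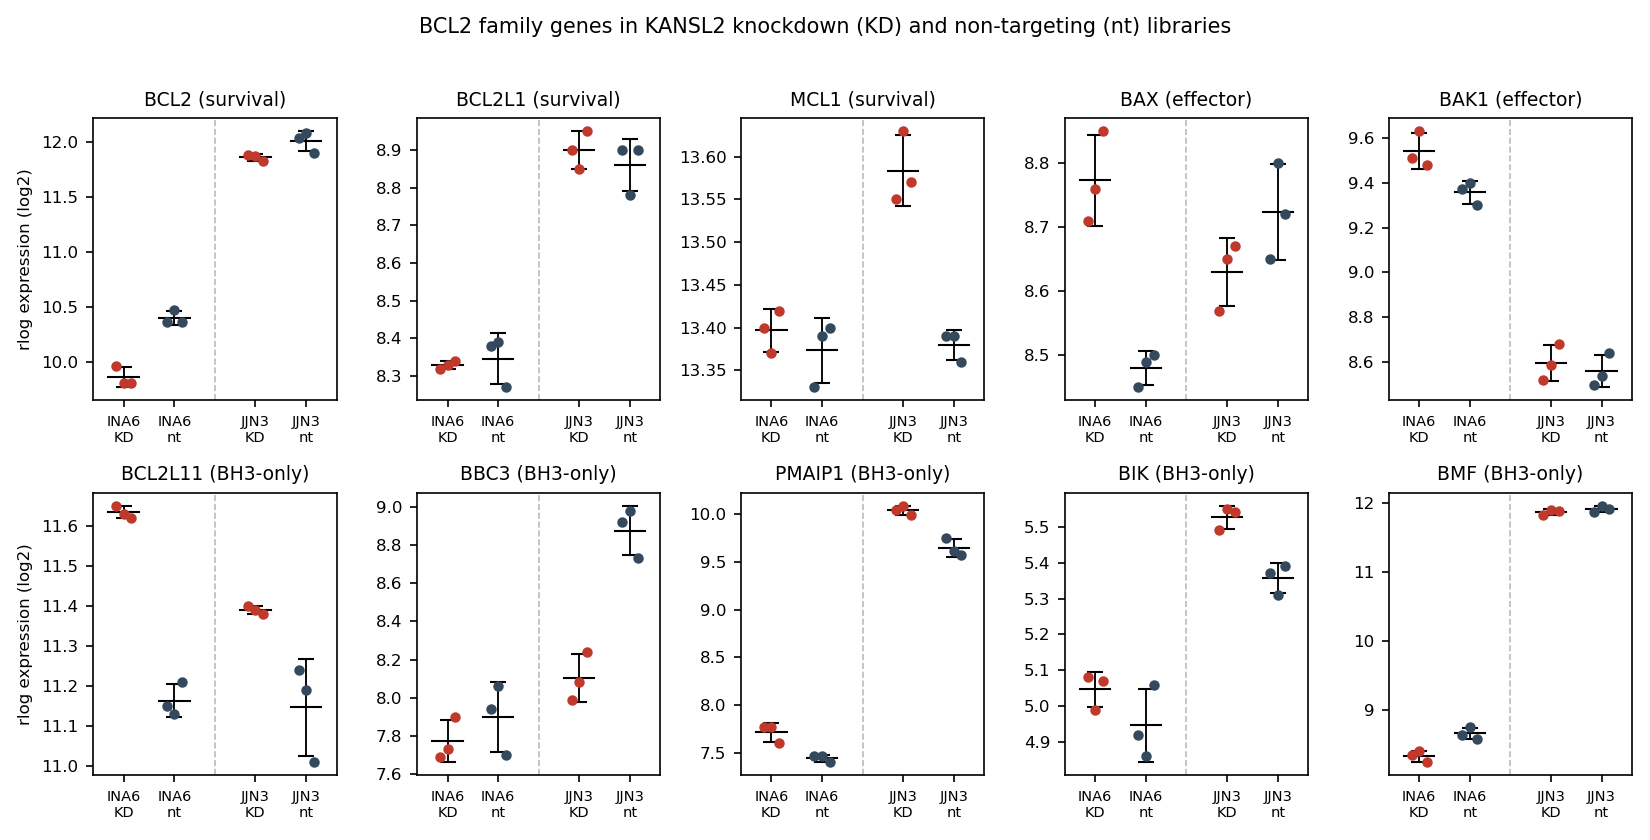
rlog expression (log2) of the 10 BCL2 family genes in each library, with INA6 left and JJN3 right of the dashed line, knockdown (KD, red) left of non-targeting (nt, dark). Points are libraries, the long line is the mean and the error bars are 1 SD (n = 3). Each panel has its own axis, which does not start at 0, and levels on the 2 sides of the dashed line come from separate normalisations. The largest gaps between arms are those of BBC3 in JJN3 and of BCL2 and BCL2L11 in INA6.

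Among the survival genes, BCL2 was lower in both lines, MCL1 was higher in JJN3, and BCL2L1 was called in neither line. BCL2, the founding member of the family, spans 63123346 to 63320090 of chromosome 18 (all gene positions are RefSeq's, build GRCh38.p14). There 1 other annotated gene, LOC124904379, overlaps it, and whether they share reads was not examined. In INA6 the BCL2 rlog values were 9.97, 9.81 and 9.81 in the knockdown libraries, against 10.36, 10.47 and 10.36 in the controls. Every knockdown value lay well below every control. The means were 9.86 ± 0.0941 and 10.4 ± 0.0653 (SD, n = 3 each), a change of −0.53 (SE 0.0523), or 69.0% of control (limma adjusted p = 5.85e-08). Only 2.42% of tested genes changed by as much in either direction. The fall in JJN3 was smaller. BCL2 had 11.88, 11.87 and 11.82 in JJN3 knockdown libraries, against 12.03, 12.08 and 11.90 in controls, a change of −0.15 (SE 0.0425, adjusted p = 0.00513). The arms nearly touched, and 41.1% of tested genes changed by as much. Without control replicate 2 the JJN3 call was lost (−0.11, adjusted p = 0.0748), while quantile normalisation gave −0.25. The adjusted p ranged from 3.85e-05 to 0.0748 over its 12 alternatives.

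MCL1, a short-lived protein on which most myeloma cells rely, was higher in JJN3. Its gene lies on chromosome 1 from 150574558 to 150579610. The JJN3 values were 13.55, 13.63 and 13.57 in knockdown libraries, against 13.39, 13.39 and 13.36 in controls, with no overlap. MCL1 changed by 0.20 (SE 0.0375), to 115% of the control level, with adjusted p = 5.6e-05. Quantile normalisation gave 0.12. The INA6 arms interleaved: MCL1 had 13.40, 13.37 and 13.42 in knockdown libraries, against 13.33, 13.39 and 13.40 in controls. That change was 0.02 with a 95% interval from −0.06 to 0.10 (adjusted p = 0.656), and quantile normalisation turned its sign (−0.02).

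BCL2L1 showed no detectable change in either line. This gene lies on chromosome 20 from 31664452 to 31723963, where the annotation has 2 overlapping genes, one of them antisense by its name (BCL2L1-AS1). Without a stated strand setting their reads cannot be told apart. Its values were 8.32, 8.33 and 8.34 in INA6 knockdown libraries, against 8.38, 8.39 and 8.27 in controls. In JJN3 they were 8.90, 8.85 and 8.95 in knockdown libraries, against 8.90, 8.78 and 8.90 in controls. Both pairs of arms overlapped. The 95% intervals of the change were −0.13 to 0.10 in INA6 (adjusted p = 0.827) and −0.06 to 0.14 in JJN3 (adjusted p = 0.483).

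Both pore-forming effectors were higher in INA6, and neither was called in JJN3. BAX, a cytosolic protein that moves to mitochondria when activated, lies on chromosome 19 from 48954875 to 48961798. In INA6 it had 8.71, 8.76 and 8.85 in knockdown libraries, against 8.45, 8.49 and 8.50 in controls. All knockdown values were above all controls, and the change was 0.29 (SE 0.0549), or 122% of control (adjusted p = 0.000164). JJN3 leaned the other way, with BAX at 8.57, 8.65 and 8.67 in knockdown libraries, against 8.65, 8.80 and 8.72 in controls. These arms overlapped, and the change of −0.10 (95% interval −0.20 to 0.01) did not pass (adjusted p = 0.117).

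BAK1, the effector that resides on the mitochondrial membrane, lies on chromosome 6 from 33572552 to 33580276. Pseudogenes BAK1P1 and BAK1P2 are annotated elsewhere in the genome, and whether BAK1 shares reads with them was not examined. INA6 knockdown libraries had 9.51, 9.63 and 9.48, against 9.37, 9.40 and 9.30 in controls. The arms did not overlap and the change was 0.18 (SE 0.0523, adjusted p = 0.00606). This call rested on knockdown replicate 2, without which it fell short at 0.14 (adjusted p = 0.0622). Its adjusted p spanned 0.00143 to 0.0622 across alternatives. In JJN3 BAK1 had 8.52, 8.59 and 8.68 in knockdown libraries, against 8.50, 8.54 and 8.64 in controls. The arms interleaved, with a change of 0.04 (95% interval −0.07 to 0.15, adjusted p = 0.578).

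BH3-only genes moved in both directions: BCL2L11 and PMAIP1 were higher in both lines, BIK was higher in JJN3, BBC3 was lower in JJN3 and BMF was lower in INA6. BCL2L11 encodes BIM, which binds all the main survival proteins and is under control of FOXO factors in lymphoid cells. It lies on chromosome 2 from 111120914 to 111168445. In INA6 it had 11.65, 11.63 and 11.62 in knockdown libraries, against 11.15, 11.13 and 11.21 in controls. Each arm was tight and the gap between them was wide. The change was 0.47 (SE 0.0414), to 138% of control, with adjusted p = 1.45e-08, and 4.00% of tested genes changed by as much. JJN3 values were 11.40, 11.39 and 11.38 in knockdown libraries, against 11.24, 11.19 and 11.01 in controls. The SD was 0.0105 in the knockdown arm and 0.119 in the controls, and the arms did not overlap. The change was 0.24 (SE 0.0458, adjusted p = 5.71e-05) and 0.14 with quantile normalisation.

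PMAIP1 encodes NOXA, the BH3-only partner of MCL1, and lies on chromosome 18 from 59899996 to 59904305. JJN3 had its larger change, with 10.04, 10.09 and 9.99 in knockdown libraries, against 9.75, 9.61 and 9.57 in controls. The arms were clearly apart. PMAIP1 rose by 0.40 in JJN3 (SE 0.0475), to 132% of control, with adjusted p = 4.84e-08. In INA6 it had 7.77, 7.77 and 7.60 in knockdown libraries, against 7.46, 7.46 and 7.40 in controls. Knockdown replicate 3 lay closest to the controls, yet above all of them. The change was 0.27 (SE 0.0633, adjusted p = 0.00121).

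BBC3 had the largest change of the family, a fall in JJN3. It encodes PUMA, a potent BH3-only protein, and lies on chromosome 19 from 47220824 to 47232860, where 2 microRNA genes are annotated within it. In JJN3 BBC3 had 7.99, 8.08 and 8.24 in knockdown libraries, against 8.92, 8.98 and 8.73 in controls. The highest knockdown value was below the lowest control. The means were 8.10 ± 0.125 and 8.87 ± 0.130 (SD, n = 3 each), and the change of −0.77 (SE 0.0613) leaves 58.6% of the control level (adjusted p = 2.3e-11). By absolute size this was rank 26 of 12282 tested genes. INA6 values were 7.69, 7.73 and 7.90 in knockdown libraries, against 7.94, 8.06 and 7.70 in controls. The arms overlapped because control replicate 3 was as low as the knockdown libraries. The change of −0.12 (95% interval −0.28 to 0.04) did not pass (adjusted p = 0.194), but without control replicate 3 it was −0.22 and passed (adjusted p = 0.0203). Its adjusted p ranged from 0.0203 to 0.696 over the alternatives.

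BMF, a BH3-only protein known to be held at the cytoskeleton until released, was lower in INA6. It lies on chromosome 15 from 40087890 to 40108879. Its INA6 values were 8.34, 8.40 and 8.24 in knockdown libraries, against 8.64, 8.75 and 8.58 in controls. There was no overlap, and the change was −0.33 (SE 0.0602), which leaves 79.6% of control (adjusted p = 0.000126). In JJN3 BMF had 11.82, 11.90 and 11.88 in knockdown libraries, against 11.87, 11.96 and 11.91 in controls. The arms overlapped, with a change of −0.05 (95% interval −0.13 to 0.03, adjusted p = 0.335). Quantile normalisation gave −0.16 for JJN3, past the threshold (adjusted p = 0.00135), in a range of 0.00135 to 0.711.

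BIK, a BH3-only protein of the endoplasmic reticulum, lies on chromosome 22 from 43110750 to 43129712 and was higher in JJN3. The values there were 5.49, 5.55 and 5.54 in knockdown libraries, against 5.37, 5.31 and 5.39 in controls, with no overlap. BIK changed by 0.17 (SE 0.0509, adjusted p = 0.00525). INA6 knockdown libraries had 5.08, 4.99 and 5.07, against 4.92, 4.86 and 5.06 in controls. Control replicate 3 lay inside the knockdown range, and the change of 0.10 (95% interval −0.03 to 0.22) did not pass (adjusted p = 0.186). Leaving out 1 library gave 0.05 (without control replicate 2, adjusted p = 0.533) to 0.15 (without control replicate 3, adjusted p = 0.0547).

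**Figure D2:**
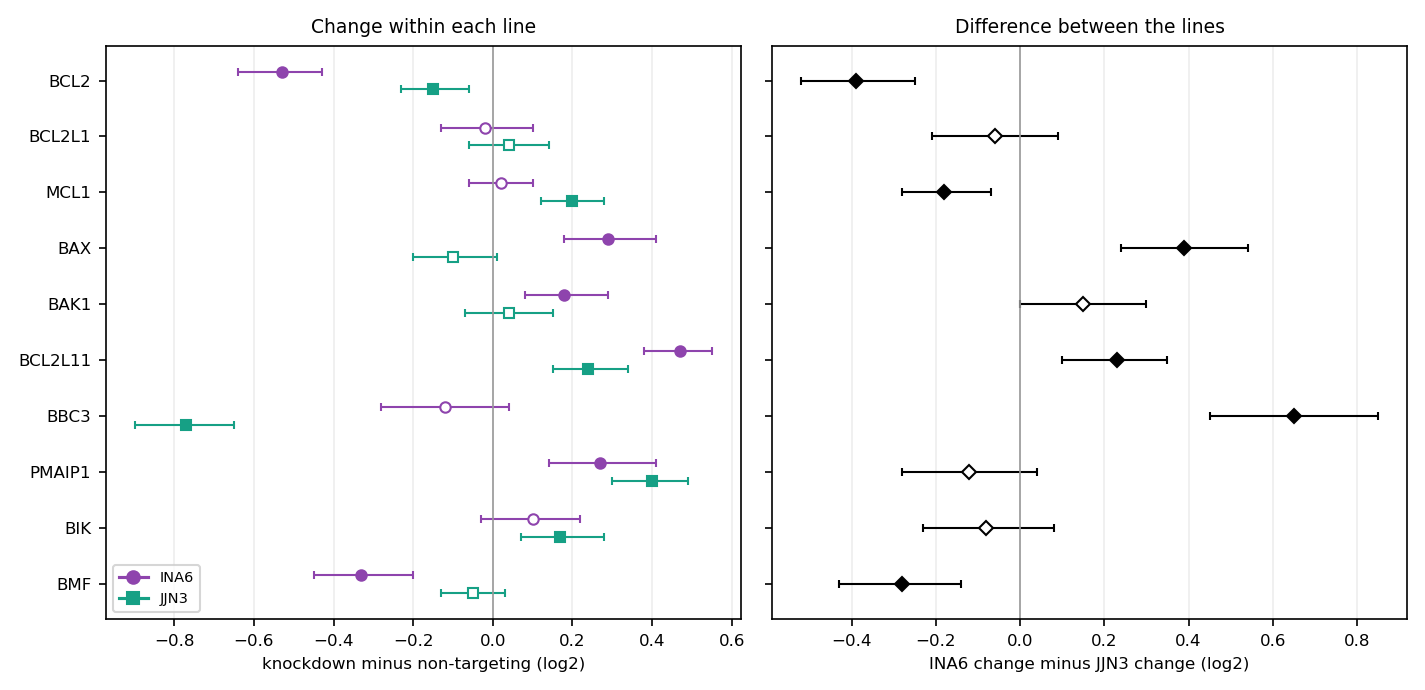
Changes of the 10 BCL2 family genes, knockdown minus non-targeting (log2) in INA6 (circles) and JJN3 (squares) on the left, and the INA6 change minus the JJN3 change on the right. Bars are 95% intervals and filled symbols passed a limma adjusted p below 0.05. BBC3 in JJN3 stands at −0.77, and the right panel has 6 filled symbols.

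Changes differed between the lines for 6 of 10 family genes, where 30.0% of 11137 genes tested in both lines differed. The test compared the 2 within-line changes, INA6 minus JJN3, over their combined standard error. BBC3 differed most, with changes of −0.12 in INA6 and −0.77 in JJN3 (difference 0.65, SE 0.0988, adjusted p = 8.37e-07). BAX, the effector, differed by 0.39, at 0.29 in INA6 and −0.10 in JJN3 (SE 0.0751, adjusted p = 5.55e-05). BCL2 fell further in INA6, −0.53 there and −0.15 in JJN3 (difference −0.39, SE 0.0674, adjusted p = 9.47e-06). BCL2L11 rose further in INA6, by 0.47 there and 0.24 in JJN3 (difference 0.23, SE 0.0617, adjusted p = 0.00375). These 4 kept their call under all 18 alternatives. BMF was lower by more in INA6, at −0.33 there and −0.05 in JJN3 (difference −0.28, adjusted p = 0.00202), a call lost with quantile normalisation (−0.16, adjusted p = 0.0875; range 0.000619 to 0.0875). MCL1 differed by −0.18, at 0.02 in INA6 and 0.20 in JJN3 (adjusted p = 0.01), a call lost without JJN3 knockdown replicate 2 (−0.15 with adjusted p = 0.0544, range 0.00453 to 0.0544). For the others the difference did not pass. Its 95% interval was −0.28 to 0.04 for PMAIP1, −0.23 to 0.08 for BIK, 0.00 to 0.30 for BAK1 and −0.21 to 0.09 for BCL2L1. KANSL2 itself was lowered less in INA6, by 0.82 on the log2 scale (adjusted p = 2.11e-11), and the depth of knockdown and the line cannot be told apart here.

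Ratios of 2 transcripts in the same library do not depend on a single scaling constant per library. Quantile normalisation, which shifts genes unequally, can change them. They are given as a description, because the pairs were chosen after the values were seen. The BCL2L11 to BCL2 ratio was higher in knockdown libraries of both lines. Relative to the mean control ratio, its log2 shift was 0.91, 1.05 and 1.04 in the INA6 knockdown libraries, against 0.03, −0.10 and 0.08 in the controls. In JJN3 the shift was 0.37, 0.38 and 0.41 in knockdown libraries, against 0.07, −0.03 and −0.03 in controls. The mean factor by which BIM transcripts gained on BCL2 transcripts was 2.00 in INA6 and 1.31 in JJN3. The BCL2L11 to MCL1 ratio had a mean shift of 0.45 in INA6 without overlap and of 0.04 in JJN3 with overlap. PMAIP1 gained on MCL1 by 0.25 in INA6 and 0.20 in JJN3, with no overlap in either. BBC3 lost against MCL1 in JJN3, with shifts of −1.05, −1.03 and −0.82 in knockdown libraries, against 0.03, 0.09 and −0.13 in controls. In INA6 that ratio overlapped between arms (mean shift −0.15).

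Promoter sequences are shown for the pair that was higher in both lines and for the 2 genes with the largest positive difference between lines (BBC3 and BAX). Each runs from 250 bases before to 50 bases after a start given by RefSeq (build GRCh38.p14), on the gene's strand. Capitals mark motif matches on either strand of 7 motifs. These are the core promoter element TATAAA, the word CCAAT known to be bound by factor NF-Y, the box GGGCGG recognised by proteins of the SP family, the palindromic E-box CACGTG, the cyclic AMP response element TGACGTCA, the spaced site TTCNNNGAA of activated STAT proteins, and the core CCGGAA recognised by many ETS factors. A match on the opposite strand appears as its reverse complement. The last 2 can overlap each other, but no 2 different motifs overlapped in these entries.
BCL2L11 (chr2:111120664-111120963, plus strand): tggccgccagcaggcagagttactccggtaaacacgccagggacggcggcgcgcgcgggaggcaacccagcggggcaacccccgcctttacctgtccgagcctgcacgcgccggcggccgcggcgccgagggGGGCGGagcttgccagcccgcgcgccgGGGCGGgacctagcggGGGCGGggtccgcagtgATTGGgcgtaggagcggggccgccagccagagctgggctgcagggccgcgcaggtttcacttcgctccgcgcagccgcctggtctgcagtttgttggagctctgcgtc
PMAIP1 (chr18:59899746-59900045, plus strand): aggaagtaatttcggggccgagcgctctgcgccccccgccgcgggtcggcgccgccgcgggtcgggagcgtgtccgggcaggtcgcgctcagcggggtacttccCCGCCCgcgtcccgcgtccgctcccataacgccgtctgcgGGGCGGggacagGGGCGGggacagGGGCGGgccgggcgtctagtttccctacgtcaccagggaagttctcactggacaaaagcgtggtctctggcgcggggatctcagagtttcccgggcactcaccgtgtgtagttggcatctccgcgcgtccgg
BBC3 (chr19:47232618-47232917, minus strand): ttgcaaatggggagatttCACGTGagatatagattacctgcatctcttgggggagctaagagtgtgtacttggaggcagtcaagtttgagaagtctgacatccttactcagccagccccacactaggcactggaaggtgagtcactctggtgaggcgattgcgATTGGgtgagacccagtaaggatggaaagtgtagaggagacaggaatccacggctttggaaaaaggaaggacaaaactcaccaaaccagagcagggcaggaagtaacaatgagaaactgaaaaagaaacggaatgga
BAX (chr19:48954625-48954924, plus strand): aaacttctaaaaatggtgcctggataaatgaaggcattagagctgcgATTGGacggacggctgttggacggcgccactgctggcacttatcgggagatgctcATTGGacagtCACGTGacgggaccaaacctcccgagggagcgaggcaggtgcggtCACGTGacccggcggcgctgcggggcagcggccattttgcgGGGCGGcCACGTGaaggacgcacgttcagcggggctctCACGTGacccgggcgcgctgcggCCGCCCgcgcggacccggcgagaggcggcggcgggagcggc

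The share of G and C was 74.7% for BCL2L11 and 71.3% for PMAIP1, the genes higher in both lines, and 70.7% for BCL2, the gene lower in both, where the median of all 35116 promoter entries was 58.7%. GGGCGG occurred 3 times in BCL2L11 and 4 times in PMAIP1, and 45.0% of all entries hold it at least once. It also occurred 2 times each in BAX, BAK1 and 1 BMF window, and 1 time in 1 BCL2L1 window. The BBC3 window had 48.0% G and C, 1 CACGTG and 1 CCAAT match. In the BAX window CACGTG occurred 4 times, a word found in 7.26% of entries, and CCAAT 2 times, found in 34.6%. The BCL2 window held none of the 7 motifs. For BBC3 and BCL2, both on the minus strand, the window's start lies inside the gene's span. The BBC3 window runs from 47232618 to 47232917 and the gene ends at 47232860. The BCL2 window runs from 63319720 to 63320019 and the gene ends at 63320090. Starts at the outer ends of these genes were not examined. RefSeq promoter entries were at hand for 8 of the 10 genes, MCL1 and BIK being the exceptions. These matches describe the letters in 1 or 2 annotated start windows per gene and do not show that a factor binds there.

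Among BCL2 family genes beyond the 10, the survival gene BCL2L2 (BCL-W) was lower in both lines. BCL2L2 had 8.37, 8.23 and 8.40 in INA6 knockdown libraries, against 8.83, 8.83 and 8.92 in controls (change −0.53, SE 0.0584, adjusted p = 3.15e-07). In JJN3 it had 5.43, 5.46 and 5.35 in knockdown libraries, against 5.81, 5.87 and 5.77 in controls (change −0.40, SE 0.0533, adjusted p = 2.92e-07). The arms did not overlap in either line. A readthrough gene with PABPN1 is annotated at this locus, so reads could be split between them. The survival genes BCL2A1 and BCL2L10 were each tested in 1 line and not called, BCL2A1 at −0.04 in INA6 and BCL2L10 at 0.04 in JJN3. BAD, a BH3-only protein regulated by phosphorylation, was lower by 0.19 in JJN3 (change −0.19, adjusted p = 0.00352). It was at −0.20 in INA6 (adjusted p = 0.0228), where the call was lost with median centring (adjusted p = 0.0572) or on leaving out knockdown replicate 1 (0.0564), knockdown replicate 2 (−0.13, adjusted p = 0.172), control replicate 1 (adjusted p = 0.0832) or control replicate 3 (adjusted p = 0.062). BID, which links death receptors to mitochondria, was at 0.15 in INA6 (adjusted p = 0.0323), lost on leaving out knockdown replicate 2 (0.114), knockdown replicate 3 (0.101), control replicate 2 (0.111) or control replicate 3 (0.0916), and was not called in JJN3 (0.04, adjusted p = 0.561). HRK was tested in JJN3, at −0.15 (adjusted p = 0.0168). It was lost with quantile normalisation (0.121) and without knockdown replicate 1 (0.0739), knockdown replicate 2 (0.0529) or control replicate 3 (0.0986). The effector-like gene BOK was below the tested range in both lines. Of the 3 other survival genes, 0 rose and 1 fell of 2 tested in each line (medians −0.29 in INA6 and −0.18 in JJN3). Of the 4 other BH3-only and effector genes, 1 rose and 1 fell of 2 tested in INA6 (median −0.02), and 0 rose and 2 fell of 3 in JJN3 (median −0.15).

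Of the wider apoptosis lists, the first holds BCL2-like and BNIP genes. BNIP3L and BNIP3, mitophagy receptors of the outer membrane that hypoxia induces, fell in INA6, with changes of −1.02 for BNIP3L and −0.75 for BNIP3 (adjusted p = 1.76e-12 and 2.5e-09). In JJN3 BNIP3L fell by less, at −0.32 (adjusted p = 1.68e-07). There BNIP3 was at −0.10 (adjusted p = 0.0254), a call lost under 6 of 11 alternatives (adjusted p 0.02 to 0.118). Its JJN3 mean was 3.64, near the minimum mean of 3, and rlog shrinks changes of such low genes. BNIP1, an endoplasmic reticulum SNARE, was not called in INA6 (0.09, adjusted p = 0.259) and fell in JJN3 (−0.30, adjusted p = 5.6e-05). Over the whole list of BCL2-like and BNIP genes, 1 rose and 3 fell of 8 tested in each line, with medians of −0.01 in INA6 and −0.03 in JJN3. Of 13 apoptosome and caspase genes, 4 rose and 3 fell in INA6 (median 0.04) and 5 rose and 2 fell in JJN3 (median 0.08). Cytochrome c, CYCS, rose by 0.27 in INA6 and 0.39 in JJN3. The apoptosome scaffold APAF1 and its caspase CASP9, named after their values were seen, had negative changes. APAF1 fell in JJN3 (−0.19, adjusted p = 0.00517). Its INA6 change of −0.20 (adjusted p = 0.0212) lost its call with median centring (0.0553) or quantile normalisation (0.108), and without knockdown replicate 2 (0.0725) or control replicate 3 (−0.12, adjusted p = 0.192). CASP9 was at −0.18 in JJN3 (adjusted p = 0.00572; −0.11 and adjusted p = 0.0773 with quantile normalisation) and at −0.17 in INA6 (adjusted p = 0.0309), where it lost its call under both other normalisations and under 5 of 6 omissions of a library (adjusted p 0.0573 to 0.147).

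Inhibitor of apoptosis proteins, some of which block caspases, had 3 genes up and 1 down of 5 tested in INA6 (median 0.22) and 2 up and 2 down in JJN3 (median −0.03). XIAP, the strongest caspase inhibitor among them, was up by 0.22 in INA6 and 0.32 in JJN3 (adjusted p = 0.00128 and 3.92e-06). BIRC5 (survivin) and BIRC3 were up by 0.31 and 0.33 in INA6. In JJN3 BIRC5 was at −0.03 (adjusted p = 0.593), and BIRC3 was called lower at −0.13 (adjusted p = 0.0215), a call lost under 6 of 12 alternatives (adjusted p 0.000177 to 0.181). Death receptor genes had 4 up and 3 down of 11 in INA6 (median 0.01) and 5 up and 3 down of 11 in JJN3 (median 0.09). In JJN3 the caspase-8 regulator CFLAR rose by 0.37, the receptor FAS by 0.31 and CASP8 by 0.26, while in INA6 they were at −0.07, 0.01 and 0.04 and not called. The kinase RIPK1 rose in both lines, by 0.37 in INA6 and 0.24 in JJN3. Of the genes that fell, TRADD and TNFRSF10B were at −0.23 and −0.20 in INA6 (adjusted p = 0.00192 and 0.00526). In JJN3 TRADD and TNFRSF10B were at −0.13 and −0.14 (adjusted p = 0.0381 and 0.0125), calls lost under 6 and 3 of 12 alternatives. CASP10, which was not run under the alternatives, was at −0.23 in JJN3 (adjusted p = 5.7e-05) and at 0.11 in INA6 (adjusted p = 0.0492). TNFRSF10A, a receptor gene also not run under the alternatives, was called higher in both lines. It was at 0.20 in INA6 (adjusted p = 0.0108) and 0.15 in JJN3 (adjusted p = 0.00904). Genes known to act on MCL1 protein stability had 2 up and 2 down of 9 in INA6 (median 0.00) and 2 up and 3 down of 9 in JJN3 (median 0.07). All 4 INA6 calls were fragile: FBXW7 (−0.13) lost its call under 5 of 12 alternatives, MARCHF5 (0.14) under 6, GSK3B (0.14) under 8 and BTRC (−0.15) under 8. In JJN3 the calls of FBXW7, GSK3B and HUWE1 were lost under 6, 3 and 3 of 12. BTRC, an F-box protein of MCL1 turnover, was at −0.47 in JJN3 (adjusted p = 1.17e-07). Outer membrane partners had 3 up and 2 down of 6 in INA6 (median 0.15) and 2 up and 1 down of 6 in JJN3 (median 0.04). The channel VDAC2, known to bind BAK1 and BAX, rose by 0.28 in INA6, VDAC3 rose by 0.20 in INA6 and 0.25 in JJN3 (0.15 with quantile normalisation), and TSPO fell in INA6 (−0.65, adjusted p = 9.93e-08). In JJN3 VDAC2 was at −0.01, not called, and TSPO at −0.13 (adjusted p = 0.0429), a call lost under 7 of 12 alternatives.

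**Figure D3:**
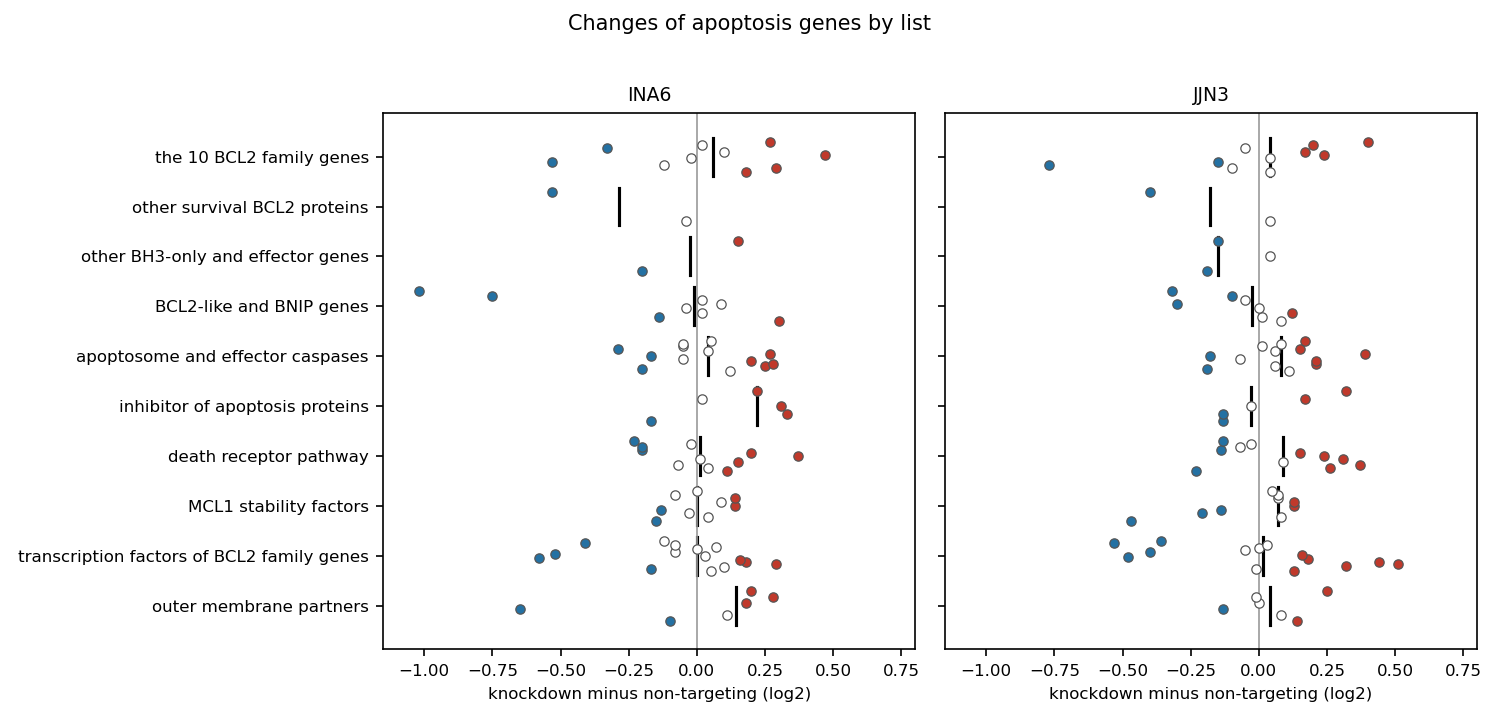
Change on KANSL2 knockdown (knockdown minus non-targeting, log2) of every tested gene of 10 apoptosis lists, INA6 left and JJN3 right. Each point is a gene, red where called higher, blue where called lower and white where not called, and the vertical bar is the list's median. Most lists hold genes of both directions, with BNIP3L (−1.02 in INA6) farthest to the left.

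Transcription factors known to regulate BCL2 family genes also split by direction, with 3 up and 4 down of 15 tested in INA6 (median 0.00) and 6 up and 4 down of 14 in JJN3 (median 0.01). E2F1, which can raise BH3-only genes, rose by 0.29 in INA6 (adjusted p = 0.000786) and 0.51 in JJN3 (adjusted p = 8.24e-10). FOXO1 rose by 0.44 in JJN3 (adjusted p = 2.63e-09). In INA6 it was at 0.18 (adjusted p = 0.00898), lost without control replicate 1 (0.15, adjusted p = 0.0584). FOXO4 was at −0.58 in INA6 and −0.48 in JJN3 (adjusted p = 1.6e-07 and 5.48e-08), STAT5B at −0.41 and −0.36 (1.42e-06 and 3.95e-08), and MYC at −0.52 and −0.40 (7.66e-10 and 4.02e-10). These values stand beside those of BCL2L11 and PMAIP1 without a test of a link.

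The genes whose values ran most like those of MCL1 and BCL2L11 were sought among 11137 genes by Pearson's r over the 12 libraries, after each line's own mean was removed. The points share the arms of the study, so r reflects mainly the differences between arms. For MCL1 these were JMY (r = 0.966), NFKBIA (0.963) and RIMS3 (0.962), with changes of 0.07, 0.13 and −0.03 in INA6 and 0.35, 0.61 and 0.51 in JJN3. For BCL2L11 they were LINC02693 (0.972), STON2 (0.972) and AMIGO3 (0.971), with changes of 0.50, 0.61 and 0.46 in INA6 and 0.26, 0.37 and 0.25 in JJN3. RIMS3 had a mean of 3.46 in INA6, near the minimum mean of 3, where rlog shrinks changes, so its INA6 value says little.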

How the data were processed

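RNA was captured by poly(A) and copied with random hexamers, per the labels' protocols. The submitters' processing notes name Trim Galore, Bowtie2, HTSeq, DESeq2 and the hg38 build, with no versions or roles. The authors deposited 1 table of rlog values (log2 scale) per line. No counts were used here, so depth is unknown and no counting interval is given; rlog shrinks changes of low genes. The series' 4 accessibility libraries of JJN3 were not analysed here.

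Each line was fitted alone with limma 3.58.1 in R 4.3.3 (eBayes with a mean-variance trend, two-sided, Benjamini-Hochberg over all genes with a mean of at least 3), with 3 libraries per arm. An exact permutation test of 3 against 3 cannot go below p = 0.1, so none is reported. The fits were run on simulated data with independent normal noise for each gene, as a check of the estimated changes. That check does not cover spread shared between libraries or technical replicates. The members and lists were chosen with earlier results of these data known. Named genes are the 10 members, KANSL2, every other core BCL2 family gene, up to 3 called genes per list and line by smallest p, and the 3 most like MCL1 and BCL2L11. Alternatives were median centring, quantile normalisation, other minimum means, no trend, a block for the replicate number, and omission of each library in turn. Some results are not reported here.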

Additional observations from a re-analysis of the deposited data

Results flagged for a closer look

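The results here are named genes, apart from those chosen for likeness, whose change on KANSL2 knockdown differed between the lines. The test was of the difference itself (INA6 change minus JJN3 change, limma adjusted p below 0.05 over 11137 genes, of which 30.0% differed). Some genes of the lists that were not named also differed, such as STAT5A (0.45), DFFB (−0.44) and CASP10 (0.34). For single genes, the alternatives for this difference were run on the 10 family genes only. KANSL2 itself differed by 0.82. Among the 10 family genes, the difference was 0.65 for BBC3, 0.39 for BAX, 0.23 for BCL2L11, −0.18 for MCL1, −0.28 for BMF and −0.39 for BCL2.

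Among other family and mitochondrial genes it was −0.69 for BNIP3L, −0.65 for BNIP3, −0.52 for TSPO, 0.39 for BNIP1, 0.29 for VDAC2 and −0.24 for BCAP31, an endoplasmic reticulum protein cut by caspase-8. Among caspase, inhibitor of apoptosis and death receptor genes it was 0.46 for BIRC3, −0.44 for CFLAR, 0.34 for BIRC5, −0.30 for FAS, −0.22 for CASP8 and 0.19 for CASP2. Among regulators it was 0.32 for BTRC, −0.26 for FOXO1, −0.22 for E2F1 and 0.18 for the phosphatase DUSP6. Each value is a difference of 2 changes from tables normalised separately, and its cause was not tested. For BNIP3 the JJN3 mean was 3.64, near the minimum mean of 3, so its JJN3 change may be shrunken.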

How the results depend on the processing

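Counts of called genes stayed within 1.5 times under every alternative run. Leaving out 1 library gave 5034 to 6093 calls in INA6 (6084 with all libraries), 5332 to 6078 in JJN3 (6264) and 2723 to 3434 genes that differed between lines (3342). Of the 10 family genes, 5 to 7 were called in each line under the alternatives. Sign changes occurred among values that were not called: with median centring, BCL2L1 (0.02) and RIMS3 (0.01) in INA6 and VDAC2 (0.02) in JJN3; with quantile normalisation, MCL1 (−0.02), BIRC6 (−0.01) and CASP8 (−0.01) in INA6 and VDAC2 (0.03) in JJN3; without knockdown replicate 2, FAS (−0.02) in INA6 and VDAC2 (0.02) in JJN3; without control replicate 2, FAS (−0.08) in INA6 and VDAC2 (0.04) in JJN3; and without knockdown replicate 3, BAK1 (−0.01) in JJN3. Among other named genes, 12 lost a call under at least 1 alternative in INA6 and 11 in JJN3. Over the omissions of 1 library, values ran from −0.08 to 0.06 for FAS in INA6, from −0.01 to 0.08 for BAK1 in JJN3 and from −0.04 to 0.04 for VDAC2 in JJN3. The cause was not tested. The labels give no pairing of the samples. Deviations of same-numbered libraries correlated at −0.179, −0.0678 and −0.296 in INA6 and at 0.00452, −0.014 and 0.00188 in JJN3. Those of differently numbered libraries correlated at −0.0686 to 0.24 in INA6 and at −0.0556 to 0.0637 in JJN3. Whether a batch or another pairing lies behind the INA6 values was not tested. With the replicate number as a block, 5626 genes were called in INA6, 6205 in JJN3 and 2976 differed between lines, and 6 family genes were called in each line. The block ended the INA6 calls of BID (adjusted p = 0.0614), FBXW7 (0.0718), GSK3B (0.0549), MARCHF5 (0.0673), BTRC (0.0631), BCAP31 (0.115) and NFKBIA (0.0616), and no other call of a named gene.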
